A study of Rattus norvegicus with 6 samples.

Results

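The tumor necrosis factor (TNF) superfamily was examined in rat fibroblast-like synoviocytes, the lining cells of the joint, as 42 protein-coding genes of the 34156 in the count table. The members are every gene whose name starts with Tnfsf or Tnfrsf, together with Fas, Faslg, Lta, Ltb, Ltbr, Cd40, Cd40lg, Cd27, Cd70, Ngfr, Edar and the intracellular adaptors Tradd, Ripk1 and Fadd. They comprise 16 ligands, 23 receptors and 3 adaptors, and the rule that lists them uses names only. RNA was sequenced from 6 libraries of rat RA-FLS, cells from a commercial collection, labelled as wild type and as rheumatoid arthritis, in 2 groups of 3. The TNF-α group received 10 ng/mL TNF-α, and the TNF-α+EMO group received the same TNF-α with 80 μmol/L emodin (EMO), an anthraquinone of rhubarb. Both groups therefore carried TNF-α, and no untreated or EMO-only library was analysed here, so each difference is that of adding EMO to TNF-α. The labels place the harvest at day 5, the methods give a shorter incubation, and which of them holds is not settled by the files.

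TNF superfamily ligands are mostly membrane proteins that work as trimers, and several are shed by proteases into soluble cytokines. Their receptors bind them through cysteine-rich repeats, and pass the signal on either through a death domain, which recruits Tradd, Fadd and Ripk1, or through motifs that bind TRAF proteins and lead to NF-κB. In the synovium the family is best known for TNF-α itself, for the ligand RANKL (Tnfsf11), which drives osteoclasts through its receptor RANK (Tnfrsf11a), and for osteoprotegerin (Tnfrsf11b), the soluble decoy that binds RANKL.

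The libraries held 16813322 to 17794455 counts on genes. TNF-α+EMO replicate 3 lay farther from its group than the other libraries did, with a median absolute log2 difference per gene of 0.177 and 0.230 to replicates 2 and 1, against 0.103 to 0.108 between TNF-α libraries. Of 9 fibroblast and synoviocyte markers analysed here, 8 reached more than 3 counts in a library, and their summed level was 188645.5 to 209089 normalized counts in the TNF-α group and 35947 to 38536 in the TNF-α+EMO group. Among them Col1a1 had a mean of 111181 and 3709 normalized counts in the groups, Pdgfra 20844 and 216 and Cd55, which went the other way, 153 and 757, whereas Thy1 and Prg4 had at most 7 and 4 counts in any library and Pdpn at most 1. The common leukocyte marker Ptprc had at most 1 count, 4 of 6 lymphocyte markers and 3 of 6 osteoclast markers had 0 in every library, and the summed osteoclast list was 22.4 to 33.4 normalized counts in the TNF-α group and 3.07 to 6.11 with EMO. The summed macrophage and leukocyte list was 1199 to 1299.7 and 746.8 to 818, carried by Cd14 with means of 1093 and 510.3, while Cd68 (153 and 256.5) and Itgam (0.327 and 12.3) were higher with EMO. The summed lists of other cell types were lower with EMO, at 69.2 to 76.5 against 13.2 to 21.7 for endothelium, 986.8 to 1057 against 75.7 to 92.7 for muscle and pericytes and 9949.5 to 10806.5 against 1968 to 2304 for epithelium, the last almost wholly Krt8. The lymphocyte list was at 2.92 to 3.92 and 0 to 3.07. The part of these markers in the results was not tested, and in bulk RNA fewer cells of a type and less RNA per cell cannot be told apart.

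With EMO, the receptors Tnfrsf9 and Tnfrsf11b and the ligands Tnfsf15 and Tnfsf13 fell from means of 296 to 807 normalized counts to fewer than 50 in every library, and Tnfrsf1b fell 3.22-fold. Tnfrsf26 rose 4.14-fold, to become the most abundant receptor mRNA of the family per kilobase, and the ligand Tnfsf18 rose 6.67-fold. The death receptor Fas and the lymphotoxin receptor Ltbr had fold changes of 1.08 and 0.993 and did not pass the test. Tnfsf11 and Tnfrsf11a, encoding RANKL and RANK, had 0 counts in every library of both groups. Counts were scaled between libraries by edgeR's TMM method and are given as normalized counts, the count a gene would have at the mean effective library size. Values are mean ± SD over 3 libraries, and a log2 fold change is TNF-α+EMO over TNF-α, with its standard error (SE) and a p adjusted over all genes by Benjamini-Hochberg. The methods call the 3 libraries of a group biological replicates without saying how the cultures were separated, so the p-values measure the spread between these libraries, which may in part be technical.

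The test was run on genes that reached 10 counts in 3 or more libraries, which left 22 of the 42 members. Of these, 17 passed at an adjusted p under 0.05, 6 higher and 11 lower with EMO, where 80.9% of the 13614 genes tested passed, 39.4% higher and 41.4% lower. With a change over 2-fold required as well, 13 of the 22 (59.1%) were called, against 47.3% of all genes. These were 4 higher and 9 lower members, 18.2% and 40.9% of the 22, where 19.5% and 27.8% of all genes were called in those directions. The libraries of the groups did not overlap in 18 of the 22 members, against 82.9% of all genes. These shares lie near the background, so the counts are not a result about the family. The median log2 fold change of the tested members was -0.49, beside -0.01 over all genes tested. It rests on the libraries and the filter, at -0.31 without TNF-α+EMO replicate 2, -0.65 without TNF-α+EMO replicate 3, -0.03 with a minimum of 50 counts and -1.03 with no filter. Of the tested members, 5 reached 10 counts in libraries of the TNF-α group only (Tnfrsf9, Tnfrsf25, Tnfsf10, Tnfsf15 and Tnfsf4), so they could enter the test only by being lower with EMO. The count rests on the filter. With every gene that had a count tested, 20 members were called, beside 7408 of all genes. Shares are not given for that setting, so this count is not a result about the family either. The 7 added were Ltb, Tnfrsf14, Tnfrsf19, Tnfrsf8, Tnfsf13b, Tnfrsf4 and Tnfrsf18, each with at most 24 counts in any library.

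**Figure D1:**
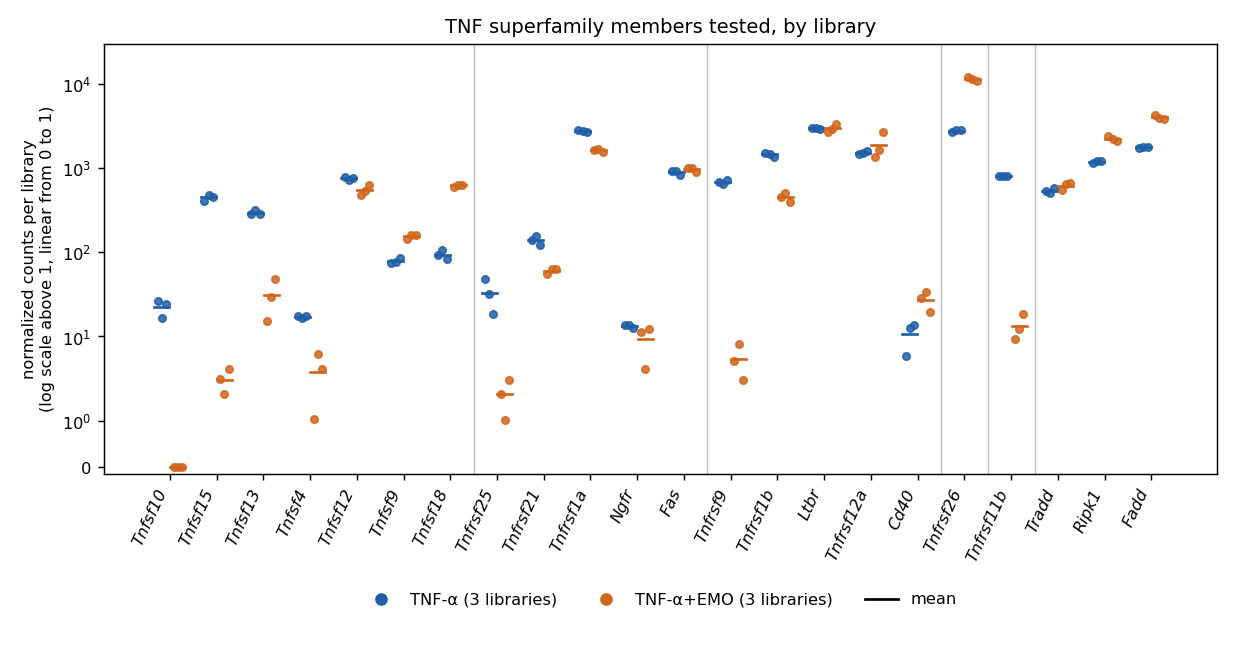
Normalized counts of the 22 tested members in each library, on an axis that is logarithmic above 1 and linear from 0 to 1, with blue points for the 3 TNF-α libraries, orange points for the 3 TNF-α+EMO libraries and a bar at each mean, and with grey lines between ligands, death domain receptors, TRAF-binding receptors, Tnfrsf26, the decoy Tnfrsf11b and the adaptors. Tnfsf15, Tnfrsf9 and Tnfrsf11b lie at 405 or more in the TNF-α group and at 18.3 or less with EMO, while Ltbr and Fas overlap between the groups.

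To show the sequence before the annotated start of members with large changes, the RefSeq promoter table (build GRCr8) was read. It gave the 250 bases before the start site and matched 31 of the 42 members by symbol. Whether these starts are used in these cells was not tested. The called members Tnfrsf11b, Tnfsf4 and Cd40 had no window and were not searched. Among the called members with a window, the TNF receptor gene Tnfrsf1b alone holds a motif match. The windows shown are those of the strongly lowered Tnfrsf9 and Tnfsf15, of Tnfrsf1b and of the raised Tnfsf18 and Tnfrsf26. Each is 5′ to 3′ on its own strand, in lower case with a motif match in capitals. They lie at chr5:166664244-166664493 (plus strand), chr5:82171659-82171908 (minus strand), chr5:162387412-162387661 (minus strand), chr13:76366603-76366852 (plus strand) and chr1:208252431-208252680 (minus strand).
Tnfrsf9: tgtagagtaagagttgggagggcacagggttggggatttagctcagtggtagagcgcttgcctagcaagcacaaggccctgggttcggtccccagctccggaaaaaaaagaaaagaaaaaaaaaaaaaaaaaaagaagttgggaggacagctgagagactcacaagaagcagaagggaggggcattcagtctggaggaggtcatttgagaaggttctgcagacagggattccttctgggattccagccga
Tnfsf15: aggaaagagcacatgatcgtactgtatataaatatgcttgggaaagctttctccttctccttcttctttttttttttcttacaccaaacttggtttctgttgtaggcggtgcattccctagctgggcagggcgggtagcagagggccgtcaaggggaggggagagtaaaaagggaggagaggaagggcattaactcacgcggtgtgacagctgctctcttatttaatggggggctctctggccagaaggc
Tnfrsf1b: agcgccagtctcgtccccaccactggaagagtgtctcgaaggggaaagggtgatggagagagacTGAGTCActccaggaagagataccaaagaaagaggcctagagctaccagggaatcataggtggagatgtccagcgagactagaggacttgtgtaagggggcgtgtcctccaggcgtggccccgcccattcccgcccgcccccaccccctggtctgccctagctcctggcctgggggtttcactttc
Tnfsf18: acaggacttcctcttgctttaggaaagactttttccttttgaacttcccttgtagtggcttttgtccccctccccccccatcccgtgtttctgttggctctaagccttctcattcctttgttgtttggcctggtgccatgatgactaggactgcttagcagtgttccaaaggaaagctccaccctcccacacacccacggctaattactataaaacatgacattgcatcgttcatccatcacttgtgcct
Tnfrsf26: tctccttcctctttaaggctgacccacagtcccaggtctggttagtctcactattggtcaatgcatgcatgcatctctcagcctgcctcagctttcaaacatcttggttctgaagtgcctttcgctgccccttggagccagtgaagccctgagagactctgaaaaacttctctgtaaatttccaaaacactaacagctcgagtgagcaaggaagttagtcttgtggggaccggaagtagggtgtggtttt

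The letters searched on both strands were GGG and TTTCC with any 2 bases between them, a form of the NF-κB motif, and TGACTCA, the AP-1 motif, and no member held both. In windows of this length, 1.30% of 33469 promoters held the first and 4.05% the second. Among the members, Ltb and Tnfrsf4 held the NF-κB letters and Tnfrsf1b and Tnfrsf8 the AP-1 letters. Of the 7 members called lower that had a window, 0 held the NF-κB letters and 1 the AP-1 letters, which is Tnfrsf1b, at position -186 from the start site. Of the 3 called higher, 0 held either. A match or its absence describes these letters in this window only.

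Of the 16 ligands, 7 were tested, of which 4 were called lower and 1 higher, where 27.8% and 19.5% of all genes were called so. Among the lower ones, Tnfsf15, Tnfsf10 and Tnfsf4 reached 10 counts in TNF-α libraries only. They could enter the test only by being lower with EMO, so this tally is not a result about the ligands. Tnfsf15 (chromosome 5, 79553742 to 79570073 in the deposited coordinates, Rnor_6.0 per the submitters' processing notes), also named TL1A, is a costimulator of T cells that binds the death domain receptor Tnfrsf25. Its normalized counts were 405, 482 and 459.8 under TNF-α alone and 3.09, 2.05 and 4.07 with EMO. The groups lie far apart, with a log2 fold change of -7.13 (SE 0.21, adjusted p 1.6e-10 by edgeR). Its receptor Tnfrsf25 had 48.1, 32.2 and 18.5 normalized counts under TNF-α alone and 2.06, 1.02 and 3.06 with EMO. The receptor was thus at the limit of counting in every EMO library. After scaling between libraries, its summed counts of 101 and 6 gave a ratio of 16.1 (95% exact interval 7.12 to 44.8, counting error only). Its adjusted p was 5.4e-05.

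Tnfsf13 (chromosome 10, 56286887 to 56289952), also named APRIL, is a survival factor for B cells and plasma cells. It had 287, 316 and 284.5 normalized counts under TNF-α alone and 15.5, 29.7 and 47.9 with EMO. Every EMO library was below every TNF-α library, with a wide spread among the EMO libraries, and the log2 fold change was -3.25 (SE 0.30, adjusted p 4.4e-06). Tnfsf13b, encoding the related factor BAFF, had 9, 24 and 4 counts under TNF-α alone and 3, 2 and 0 with EMO, below the filter, and was called lower when no filter was set (log2 fold change -2.73, adjusted p 0.0082). The receptors of both, Tnfrsf13b, Tnfrsf13c and Tnfrsf17, had at most 4 counts in any library.

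Tnfsf18 (chromosome 13, 79378733 to 79388498), the ligand of GITR, a costimulatory receptor of T cells, went the other way. It had 92.2, 105 and 82.8 normalized counts under TNF-α alone and 605, 635 and 630.5 with EMO, with a log2 fold change of 2.74 (SE 0.11, adjusted p 1.9e-09). The EMO libraries lay close together and all above the TNF-α libraries. GITR itself, Tnfrsf18, had 0 counts throughout the TNF-α group and 0, 3 and 6 with EMO.

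Tnfsf10, encoding the death ligand TRAIL, had 27, 17 and 25 counts under TNF-α alone and 0 in each EMO library, at least 7.31-fold lower against a floor of 3 counts per library (adjusted p 4.0e-05). Tnfsf4, the ligand of the T cell costimulator OX40, fell from 17.3 ± 0.59 to 3.75 ± 2.57 normalized counts (log2 fold change -2.16, SE 0.51, adjusted p 0.0022). Both were scarce in these cells, so their fold changes carry wide errors.

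The remaining tested ligands moved less. Tnfsf12 (chromosome 10, 56290780 to 56300077), also named TWEAK, was the most abundant ligand in the TNF-α group per kilobase, and fell from 760.6 ± 25.6 to 554 ± 78.0 normalized counts (log2 fold change -0.46, adjusted p 0.0018). Tnfsf9, the ligand of CD137, rose from 78.8 ± 5.18 to 155 ± 9.54 (log2 fold change 0.98, SE 0.16, adjusted p 1.7e-04). Its size sits at the 2-fold threshold, which it passed without TNF-α replicate 3 (1.03) and without TNF-α+EMO replicate 1 (1.02). Tnfsf11, Tnfsf8, Tnfsf14, Lta, Cd40lg and Cd70 had 0 counts in every library, which allows up to 3 counts in each, and Faslg had at most 2. The spans of Lta and Ltb overlap the listed spans of RT1 genes with up to 1354 counts, so reads there could be split between them.

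The ligand make-up shifted accordingly. Per kilobase of gene length, Tnfsf12 held 40.5% ± 2.38 of the summed ligand level in the TNF-α group and 44.7% ± 2.30 with EMO (SD, n = 3 each). The libraries of the groups did not overlap in this share but lay close, from 37.9% to 42.6% and from 43.2% to 47.4%. Tnfsf15 held 34.9% ± 2.14 in the TNF-α group and 0.362% ± 0.10 with EMO, and Tnfsf18 held 3.67% ± 0.40 and 37.5% ± 2.68. The second place among the ligands was therefore held by Tnfsf15 in every TNF-α library and by Tnfsf18 in every EMO library. The summed ligand level per kilobase was 1224 ± 33.6 normalized counts in the TNF-α group and 803.7 ± 72.8 with EMO.

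**Figure D2:**
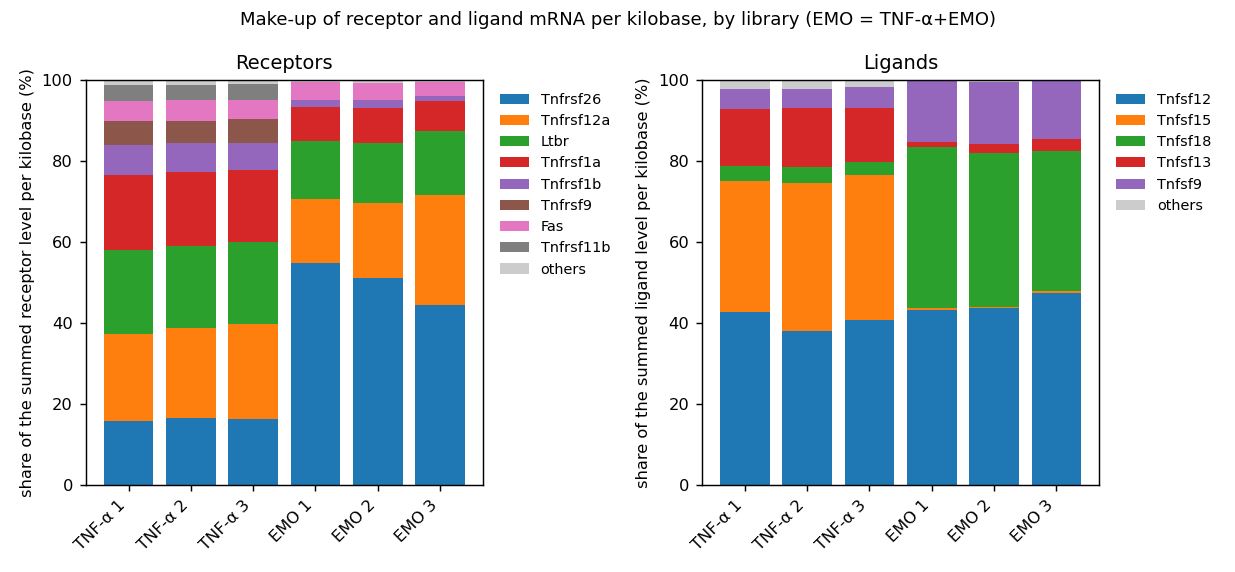
Share in percent of the summed level per kilobase held by each receptor (left) and ligand (right) in each of the 6 libraries, as stacked bars from 0 to 100, with the scarcest members pooled as others. Tnfrsf26 takes 15.7% to 16.5% of the receptor bars in the TNF-α group and 44.3% to 54.8% with EMO, and the Tnfsf15 share of the ligand bars gives way to Tnfsf18.

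Death domain receptors can lead to apoptosis or necroptosis as well as to NF-κB. Of the 6 members of this kind, 5 were tested, and Tnfrsf25 and Tnfrsf21 were called, both lower, where 27.8% of all genes were called lower. Tnfrsf25 reached 10 counts in TNF-α libraries only, so it could enter the test only by being lower with EMO. Tnfrsf1a (chromosome 4, 157864969 to 157877633), the main receptor of soluble TNF-α, had 2824, 2783 and 2660.5 normalized counts under TNF-α alone and 1643, 1714 and 1559.5 with EMO. The groups did not overlap, and it fell by 0.75 on the log2 scale (SE 0.06, adjusted p 6.6e-07), short of 2-fold. Tnfrsf21, also named DR6, had 140.3, 155 and 123 normalized counts under TNF-α alone and 55.7, 63.4 and 63.2 with EMO, again without overlap (log2 fold change -1.20, SE 0.18, adjusted p 9.6e-05). Fas (chromosome 1, 252589785 to 252624790), the receptor of Fas ligand, had 926, 934 and 835 normalized counts under TNF-α alone and 1012, 999 and 893 with EMO. These ranges overlap, and the log2 fold change of 0.11 (SE 0.08) did not pass (adjusted p 0.24). The neurotrophin receptor Ngfr had 4 to 14 counts and did not pass (log2 fold change -0.53, SE 0.44, adjusted p 0.29), and Edar had at most 4 counts.

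Of the 15 receptors that signal by binding TRAFs, 5 were tested, of which 2 were called lower and 1 higher. The shares of all genes called in those directions were 27.8% and 19.5%. One of the lower receptors, Tnfrsf9, reached 10 counts in TNF-α libraries only, so it could enter the test only by being lower with EMO. Tnfrsf9 (chromosome 5, 168009393 to 168035810), also named CD137, is an activation marker of T cells and an NF-κB target. It had 690.5, 656 and 723 normalized counts under TNF-α alone and 5.16, 8.19 and 3.06 with EMO, a log2 fold change of -6.95 (SE 0.19, adjusted p 9.7e-11). No EMO library came near the TNF-α group, while the level of its ligand Tnfsf9 rose. The per-kilobase ratio of Tnfsf9 to Tnfrsf9, a pair chosen after its values were seen, was -2.79 to -2.69 on the log2 scale under TNF-α alone and 4.59 to 5.90 with EMO, so the receptor mRNA exceeded the ligand mRNA in every TNF-α library and lay below it in every EMO library.

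Tnfrsf1b (chromosome 5, 163136390 to 163167299), the TNF-α receptor without a death domain, whose printed promoter window holds the AP-1 letters, had 1526, 1496 and 1378.5 normalized counts under TNF-α alone and 453, 514 and 400.3 with EMO. It fell by 1.69 on the log2 scale (SE 0.10, adjusted p 3.0e-08). Both TNF-α receptors were thus lower with EMO. The log2 ratio of Tnfrsf1b to Tnfrsf1a per kilobase was -1.39 to -1.33 under TNF-α alone and -2.40 to -2.18 with EMO, a description of values already given. Cd40, a receptor for T cell help, was scarce and rose from 10.7 ± 4.23 to 27.3 ± 7.33 normalized counts (log2 fold change 1.34, SE 0.40, adjusted p 0.0092).

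Ltbr (chromosome 4, 157822840 to 157829241), the lymphotoxin beta receptor of the non-canonical NF-κB route, had 3037, 3028 and 2962.5 normalized counts under TNF-α alone and 2695, 2917 and 3350.2 with EMO. The EMO libraries lay on both sides of the TNF-α libraries, and the log2 fold change was -0.01 (SE 0.08, adjusted p 0.91). Tnfrsf12a (chromosome 10, 12995904 to 12997930), also named Fn14, the receptor of Tnfsf12, had 1478, 1530.0 and 1597 normalized counts under TNF-α alone and 1370, 1657 and 2669.8 with EMO. Its log2 fold change of 0.31 (SE 0.26, adjusted p 0.33) was set by TNF-α+EMO replicate 3, the highest of all, and was -0.03 (adjusted p 0.75) without that library. The remaining 10 receptors of this kind had at most 18 counts in any library.

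Tnfrsf26 (chromosome 1, 216808632 to 216828651), a receptor gene of this superfamily described in rodents, had 2710.2, 2882 and 2816 normalized counts under TNF-α alone and 12164.6, 11649 and 11001 with EMO. All EMO libraries were above all TNF-α libraries, with a log2 fold change of 2.05 (SE 0.06, adjusted p 1.8e-10). It held 16.2% ± 0.44 of the summed receptor level per kilobase in the TNF-α group and 50.1% ± 5.32 with EMO. The summed receptor level per kilobase was 7104.9 ± 49.0 in the TNF-α group and 9535.8 ± 563.9 with EMO. Without Tnfrsf26, the sum was 5957 ± 40.8 in the TNF-α group and 4782 ± 798 with EMO. In the order of levels per kilobase, Tnfrsf12a (1594 ± 61.7), Ltbr (1450.1 ± 19.6), Tnfrsf1a (1290.2 ± 39.8) and Tnfrsf26 (1148 ± 35.5) led the TNF-α group, in that order. With EMO, Tnfrsf26 (4754 ± 239) led, followed by Tnfrsf12a (1972 ± 709), Ltbr (1439.8 ± 161) and Tnfrsf1a (767 ± 36.2). In the EMO libraries Tnfrsf12a held 15.65%, 18.4% and 27.26% of the summed receptor level and Ltbr 14.29%, 15.04% and 15.88%. Tnfrsf12a was thus above Ltbr in each of them, a difference that was not tested. Tnfrsf22, a close relative of Tnfrsf26 listed in RefSeq, was not analysed here, and reads shared by near-identical copies would make the value of Tnfrsf26 uncertain.

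**Figure D3:**
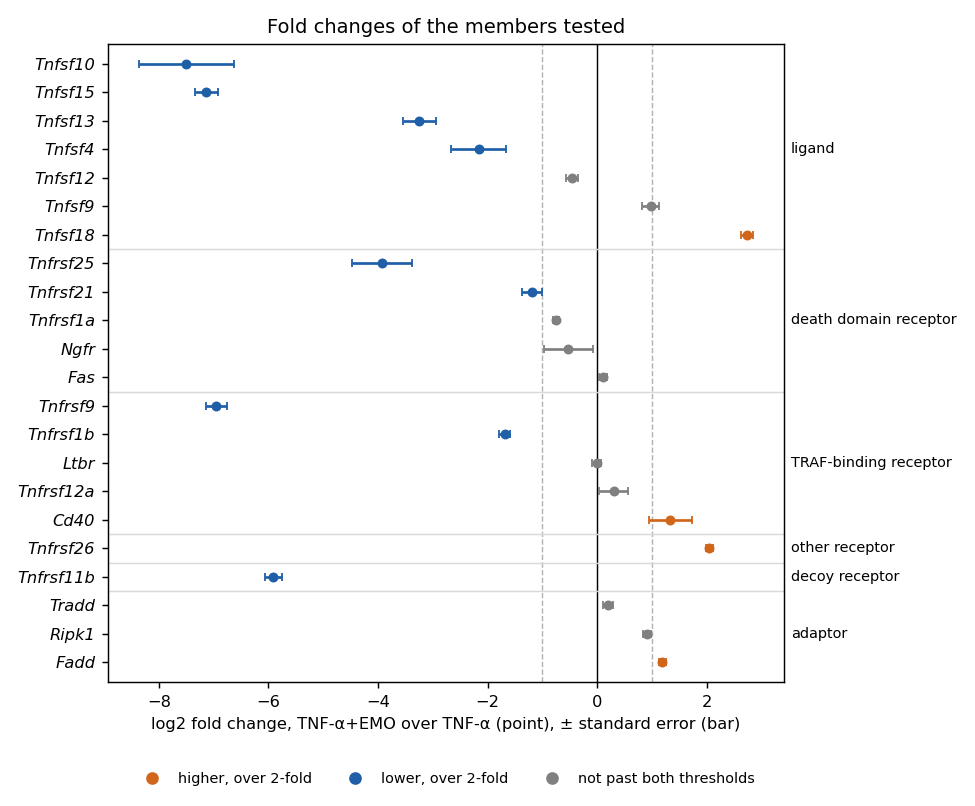
Log2 fold change of each tested member, TNF-α+EMO over TNF-α, as a point with its standard error as a bar, grouped by role, with dashed lines at the 2-fold threshold and colour for the members past both thresholds. Tnfsf15, Tnfrsf9 and Tnfrsf11b stand below -5 and Tnfsf18 and Tnfrsf26 above 2, and the point of Tnfsf10 depends on the small count that edgeR adds, since its EMO libraries are at 0.

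Of the genes that set the balance of RANKL and osteoprotegerin, Tnfrsf11b (chromosome 7, 93798545 to 93826665), encoding the decoy, had 806, 799.6 and 815 normalized counts under TNF-α alone and 9.28, 12.3 and 18.3 with EMO. The TNF-α libraries lay close together and every EMO library was far below them. The log2 fold change was -5.91 (SE 0.16, adjusted p 8.2e-11), a 60.1-fold difference. Tnfsf11 (chromosome 15, 60482527 to 60512704) had 0 counts in all 6 libraries, as had a separately listed copy of it, and its receptor Tnfrsf11a (chromosome 13, 25778317 to 25835957) also had 0. The balance was computed per library as the log2 ratio of the counts of Tnfsf11 to Tnfrsf11b with 0.5 added to each. It was -10.69 ± 0.016 in the TNF-α group and -4.70 ± 0.483 with EMO, a difference of 5.99 (two-sided exact permutation test, p = 0.1, the smallest that 3 against 3 allow). Since Tnfsf11 was at 0 throughout, this difference is that of Tnfrsf11b alone, and no change in RANKL mRNA was detectable at this depth. The 3 counts that a 0 allows would be at most 0.358% to 0.366% of the Tnfrsf11b count in a TNF-α library and 16.7% to 33.3% in an EMO library.

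Among the adaptors, Fadd (chromosome 1, 217742929 to 217748628), which links death receptors to caspase-8, had 1719.5, 1777 and 1809 normalized counts under TNF-α alone and 4244, 3967 and 3881 with EMO, a log2 fold change of 1.19 (SE 0.06, adjusted p 1.1e-08). Ripk1 (chromosome 17, 31537591 to 31569904), the kinase that decides between survival and death signals at the TNF-α receptor, rose from 1187 ± 33.2 to 2233 ± 173 (log2 fold change 0.91, SE 0.07, adjusted p 4.0e-07), short of 2-fold. In both, every EMO library was above every TNF-α library. Tradd, the platform on which Ripk1 and TRAF2 assemble, had 542 ± 36.5 and 622 ± 58.7 normalized counts and did not pass (log2 fold change 0.20, SE 0.095, adjusted p 0.076), though it did without TNF-α+EMO replicate 1 (0.27, adjusted p 0.019). Tradd overlaps a gene on the other strand with 443 to 677 counts, and the strand setting of the counting is not given in the sources used here, so its value is uncertain.

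Of the 42 members, 19 lie in 8 runs on the chromosomes, each with another member within 500 kb. A start is here the lower coordinate of a gene's span, which on the minus strand is not where transcription begins. Neighbours did not always share a direction. In the chromosome 13 run, Tnfsf4 was lower and Tnfsf18, which starts 108.8 kb farther on, was higher with EMO. On chromosome 4, Ltbr did not pass while Tnfrsf1a passed as lower, both within 2-fold, their starts lying 78.0 and 120.1 kb from that of Cd27. On chromosome 10, Tnfsf13 fell by 3.25 on the log2 scale and Tnfsf12, whose start is 3.9 kb away on the same strand, by 0.46. In the other runs, at most 1 member passed the filter, since the neighbours Tnfsf8, Tnfrsf8, Cd70, Tnfsf14, Tnfrsf4 and Tnfrsf18 and both Lta and Ltb were too low.

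**Figure D4:**
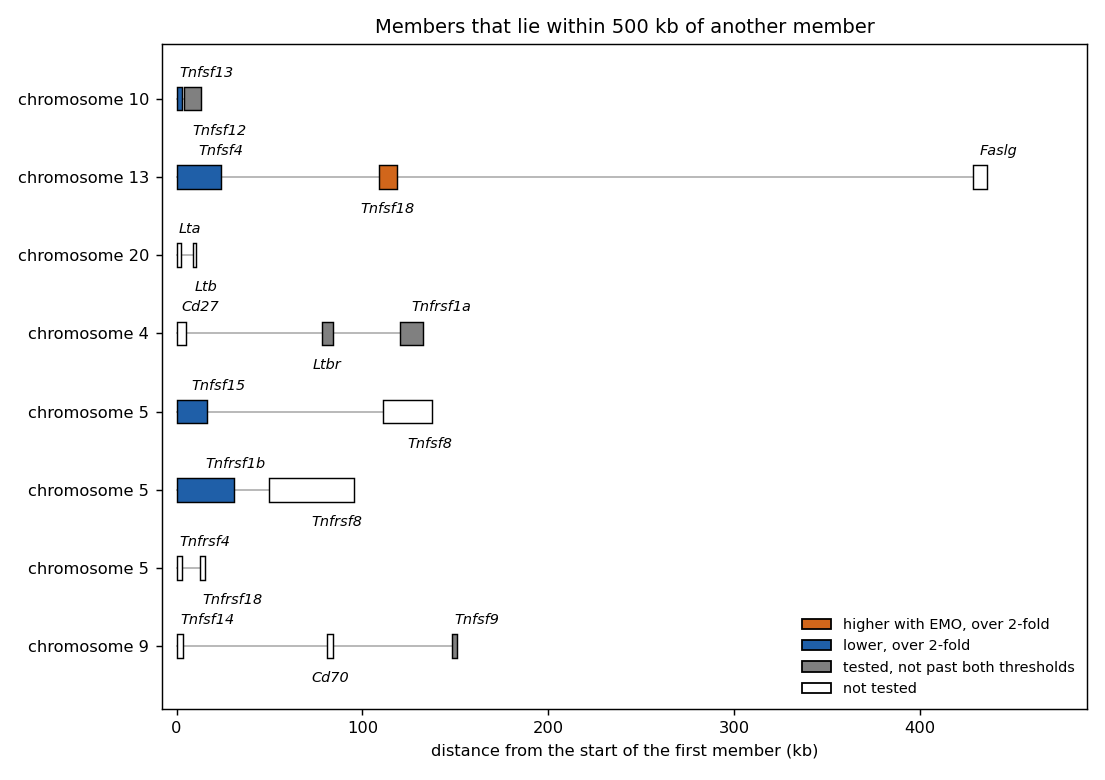
The 8 runs of neighbouring members, each drawn to scale from the start of its first member in kb, with a box for each gene coloured by its call (orange higher and blue lower with EMO by over 2-fold, grey tested but not past both thresholds, white not tested). Tnfsf4 and Tnfsf18 in the longest run were called in opposite directions.

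The signal of these receptors is carried and ended by further proteins, of which a list of 36 genes was examined, and all 36 were tested. At an adjusted p under 0.05, 18 were lower and 11 higher with EMO, where 41.4% and 39.4% of all genes passed in those directions. Over 2-fold, 9 were lower and 1 higher, so 27.8% of the list was called, against 47.3% of all genes. The median log2 fold change of the list was -0.26. Tnfaip3, the ubiquitin-editing enzyme A20 that ends NF-κB signalling, fell from 2316 ± 57.1 to 113 ± 20.2 normalized counts (log2 fold change -4.36, SE 0.11, adjusted p 5.4e-11), and its partner Tnip1 fell by 1.63 (adjusted p 6.8e-10). Map3k5, the stress kinase ASK1, fell from 1533.5 ± 12.8 to 139 ± 6.28 (log2 fold change -3.47, SE 0.08, adjusted p 3.3e-11). The adaptor Traf5 fell by 2.93 (adjusted p 1.4e-05). Adam17, the protease that sheds TNF-α and its receptors, fell from 5413 ± 146 to 1478 ± 122 (log2 fold change -1.87, SE 0.07, adjusted p 1.0e-09). Rbck1, a subunit of the linear ubiquitin ligase LUBAC, was called higher, from 2448 ± 33.6 to 5216 ± 244 (log2 fold change 1.09, adjusted p 1.7e-08).

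By role, 4 of the 12 genes for TRAFs, cellular IAPs and LUBAC were called lower and 1 higher, and 1 of the 9 genes for kinases and their partners was called, lower. Of the 4 genes for deubiquitinases and a partner 2 were called, both lower, and of the 3 shedding genes 2, both lower. Over all genes tested, 27.8% were called lower and 19.5% higher. The 8 caspase-8 and necroptosis genes all passed at an adjusted p under 0.05 by edgeR, 6 lower and 2 higher, each by less than 2-fold, where 80.9% of all genes passed. The gene nearest to 2-fold was the necroptosis effector Mlkl (log2 fold change -0.87). Tnf itself, which the name rule leaves out, had 2, 6 and 3 counts under TNF-α alone and 0 in each EMO library, below the filter. It lies between Lta and Ltb on chromosome 20, so the RT1 genes whose spans overlap both also span Tnf. Reads there could be split between them, and the low count of Tnf is uncertain.

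**Figure D5:**
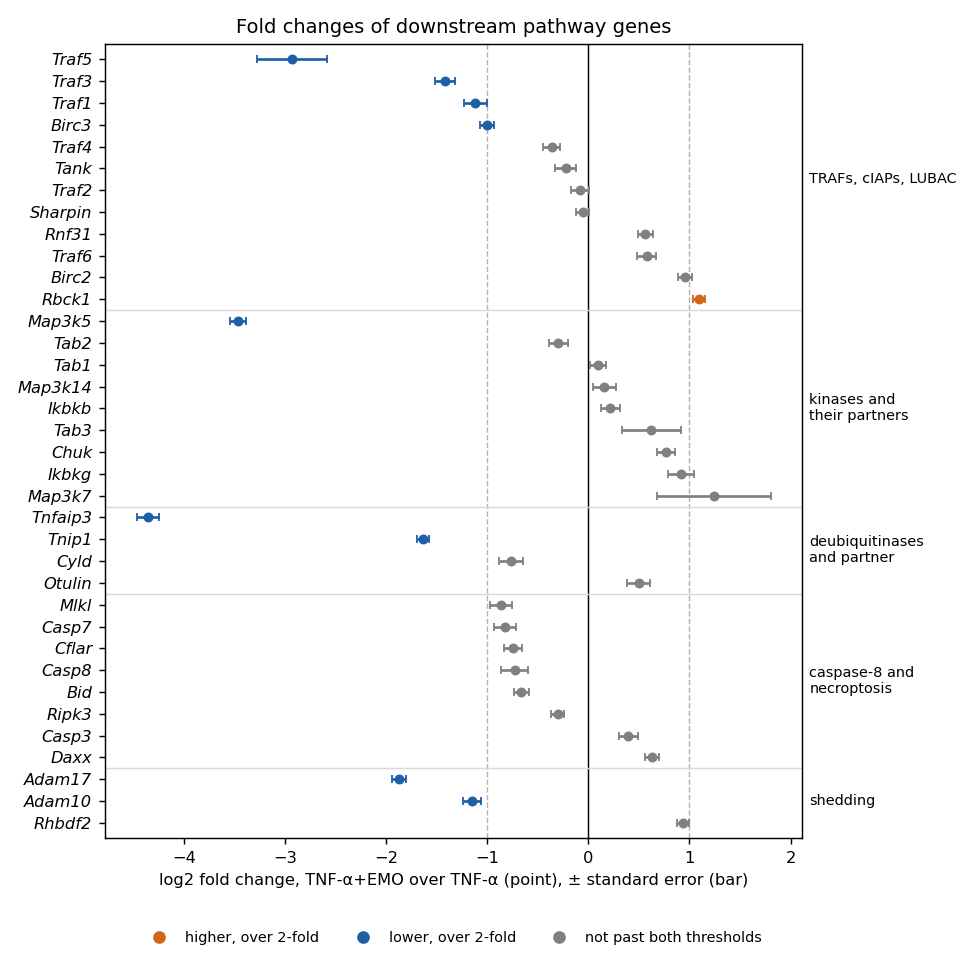
Log2 fold change of the 36 pathway genes, TNF-α+EMO over TNF-α, as points with standard errors as bars, grouped by role, with dashed lines at the 2-fold threshold. Tnfaip3, Map3k5 and Traf5 lie farthest to the left at -4.36, -3.47 and -2.93, and the caspase-8 and necroptosis genes all lie between the dashed lines.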

How the data were processed

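Poly(A)-selected RNA of 6 samples was sequenced, 3 of RA-FLS given TNF-α and 3 given EMO as well, and grouped by their labels. The authors deposited 1 table of raw counts per gene for all libraries, with gene names, positions and a gene length column of another kind, in bases. The submitters' processing notes name FastQC, Trimmomatic, HISAT2 and Rnor_6.0, while the counting program, its strand setting and the annotation release are not given in the sources used here. The deposited FPKM columns and the authors' own comparison columns (group means, log2 fold changes, p-values and adjusted p-values) were not used.

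Genes that reached 10 counts in 3 or more libraries (13614 of 34156) were scaled by TMM and compared with edgeR 4.0.16 (robust quasi-likelihood F test, R 4.3.3) in a model of group alone. The standard error is the log2 fold change divided by the square root of F. A gene was called at a Benjamini-Hochberg adjusted p under 0.05 and a change over 2-fold. Levels per kilobase are normalized counts divided by the deposited gene length. The balance was compared by an exact permutation test, whose smallest two-sided p is 0.1. A count of 0 was given a floor of 3 counts per library, and floors and intervals cover counting error only. The code was tested on simulated data in which few genes changed, equally in both directions. Far more genes changed here, so that test does not cover the scaling between libraries.

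The members and lists were chosen with earlier results of these data known. All tested members are named, and for the pathway the 5 called genes with the largest change in each direction. Other genes named were chosen after their values were seen. Alternatives were DESeq2 1.42.0, library totals in place of TMM, other filters and fold thresholds, a replicate block and leaving out each library. The name rule found no Tnfrsf10b among the protein-coding genes, so that receptor was not analysed here.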

Additional observations from a re-analysis of the deposited data

How the results depend on the processing

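The count of members called was 13 (4 higher, 9 lower) and became 20 with no filter on low counts, 14 of them lower, where 7408 of all genes were called (2973 higher, 4435 lower). With a minimum of 50 counts 9 were called, 6 of them lower, where 5227 of all genes were called (2151 higher, 3076 lower). Cd40, Tnfsf4, Tnfsf10 and Tnfrsf25 were then not tested. Above a log2 fold change of 2 there were 2 higher and 7 lower members, where 809 and 2255 of all genes were called so. The numbers of genes tested under the other filters are not given, so the counts there cannot be read against a share of all genes. Leaving out each library in turn gave 13 to 14 members, 4 to 5 higher and 9 lower, the addition being Tnfsf9 without TNF-α replicate 3 or TNF-α+EMO replicate 1. Over all genes, 6442 were called (2659 higher, 3783 lower), 11008 without a fold threshold (5366 higher) and 3064 above a log2 fold change of 2 (809 higher, 2255 lower). Without each library the counts were 6338 to 6462, 2540 to 2682 higher and 3728 to 3836 lower. Of the pathway genes, 10 were called, 29 without a fold threshold (11 higher, 18 lower) and 3 above a log2 fold change of 2 (0 higher, 3 lower). The 1 higher pathway gene, Rbck1, became 0 with library totals, where it stood at 0.98, and 2 with DESeq2, which added Map3k7. Without each library, 9 to 11 pathway genes were called, 1 to 2 higher and 8 to 9 lower, with Map3k7 added without TNF-α+EMO replicate 1, Ikbkg added without TNF-α+EMO replicate 2, and Birc3 at the threshold. Fewer or more genes follow from the thresholds by construction, and the cause of the others was not tested.

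Of 281 alternative values of the members' fold changes, 276 kept their direction and their side of the adjusted p threshold. Tradd passed without TNF-α+EMO replicate 1, and 4 values of members that did not pass changed sign, again without passing. These were Fas at -0.0048 with library totals, Ltbr at 0.0528 and 0.001 without TNF-α+EMO replicates 1 and 2 (-0.107 to 0.0528 without each library), and Tnfrsf12a at -0.0271 without TNF-α+EMO replicate 3 (-0.0271 to 0.489 without each library). The cause was not tested. Library totals moved the median of all genes from -0.01 to -0.125. Correlations of the libraries' deviations between groups were -0.0701 to 0.0676, the highest being between the libraries numbered 3. Values this small cannot settle whether libraries with the same number were cultured together, and the sources used here do not say. With the replicate block, 6421 genes, 13 members and 10 pathway genes were called. The balance differed by 5.94 with 1 count added and by 5.77 to 6.25 without each library, and its edgeR form, with and without the block, gave no value because Tnfsf11 has 0 counts. Depth limits the 20 members below the filter, of which 7 had 0 counts and the others at most 24.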

Other observations

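A few genes of the superfamily carry other names and so lie outside the name rule. Eda2r, the receptor of ectodysplasin A2, had 41.2, 48.8 and 30.2 normalized counts under TNF-α alone and 862, 729 and 645 with EMO, a log2 fold change of 4.21 (SE 0.17, adjusted p 2.0e-09 by edgeR). Every EMO library was above every TNF-α library. Eda, which encodes its ligand, fell from 69.7 ± 8.18 to 21.5 ± 7.27 (log2 fold change -1.69, SE 0.30, adjusted p 3.1e-04). Relt, a receptor of the family, fell by 0.52 on the log2 scale (SE 0.16, adjusted p 0.013). A gene without a name, described only by a TNFR/NGFR cysteine-rich region, had 1178, 1222 and 1151 counts under TNF-α alone and 1049, 1021 and 981 with EMO. Which receptor it encodes is not given.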
